A study of Mus musculus with 4 samples.

Results

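The 10 genes described here, Fga, Fgb, Fgg, F2, F5, F7, F10, Proc, Serpinc1 and Plg, encode the clotting proteins and clotting inhibitors that hepatocytes secrete into plasma. They were chosen by name, by their role in clotting, from 21701 protein-coding genes of the GENCODE vM21 annotation. All 10 passed the filter on low values, as did 15454 genes in all. Accessibility was measured by scATAC-Seq, in which the Tn5 transposase cuts open chromatin in single nuclei and each fragment carries the barcode of its nucleus. There were 4 libraries of hepatocytes isolated by collagenase perfusion, 1 from undamaged liver (PHx 0 h) and 1 from each of 48, 72 and 96 h after surgery that removes part of the liver (partial hepatectomy, PHx). The mice were wild-type male C57BL/6J on normal diet, given as 10 to 12 weeks old in the sample descriptions and as slightly younger at surgery in the study's methods. The 0 h group had no surgery, and no sham-operated group was included. The 48 h library came from 1 mouse, and neither the sample descriptions nor the methods say how many mice gave those of 72 and 96 h. With 1 library per time point there is no replicate error, no test between time points was possible, and time and library cannot be told apart.

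Clotting is a cascade in plasma: factor VII (F7), with tissue factor, activates factor X (F10), which with its cofactor factor V (F5) cleaves prothrombin (F2) to thrombin. Thrombin cuts fibrinogen, a protein assembled from the products of Fga, Fgb and Fgg, into fibrin, the mesh of the clot. Antithrombin (Serpinc1) and protein C (Proc) hold the cascade back, and plasmin, made from plasminogen (Plg), dissolves the clot. The liver makes nearly all of these proteins, and fibrinogen is also an acute-phase protein, made in larger amounts after injury. The comparison asks whether chromatin at these genes stayed open while the liver regrew.

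The fibrinogen genes lie side by side on chromosome 3, and their promoters are shown because the results below turn on this locus. The promoter of F7 is shown beside them as that of a gene whose start kept a short peak of its own in all 4 libraries. Each runs from 250 bases before to 50 bases after the RefSeq start of the gene on build GRCm38.p6, written 5′ to 3′ on the strand of the gene, with matches to the motifs named after them in capitals. The RefSeq table held 8 of the 10 genes, and Plg and Proc were not among them. The windows are chr3:83025903-83026202 (+) for Fga, chr3:83049814-83050113 (-) for Fgb, chr3:83007474-83007773 (+) for Fgg and chr8:13025784-13026083 (+) for F7.
Fga: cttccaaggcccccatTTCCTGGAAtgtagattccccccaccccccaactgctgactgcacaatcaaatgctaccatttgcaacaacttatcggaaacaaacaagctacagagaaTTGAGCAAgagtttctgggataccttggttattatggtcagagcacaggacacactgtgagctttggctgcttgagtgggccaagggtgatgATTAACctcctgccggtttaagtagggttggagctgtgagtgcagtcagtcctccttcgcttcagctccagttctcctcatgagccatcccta
Fgb: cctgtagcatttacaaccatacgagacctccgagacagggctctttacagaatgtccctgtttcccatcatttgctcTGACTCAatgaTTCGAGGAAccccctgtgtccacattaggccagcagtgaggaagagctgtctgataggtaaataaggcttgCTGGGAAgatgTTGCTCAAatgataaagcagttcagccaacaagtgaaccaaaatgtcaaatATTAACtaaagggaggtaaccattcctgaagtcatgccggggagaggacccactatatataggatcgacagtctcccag
Fgg: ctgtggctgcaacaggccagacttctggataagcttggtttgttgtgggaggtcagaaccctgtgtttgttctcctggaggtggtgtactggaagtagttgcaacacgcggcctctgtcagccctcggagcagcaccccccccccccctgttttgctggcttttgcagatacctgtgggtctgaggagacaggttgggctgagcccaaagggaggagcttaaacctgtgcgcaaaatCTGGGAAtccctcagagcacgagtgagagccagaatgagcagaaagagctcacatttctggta
F7: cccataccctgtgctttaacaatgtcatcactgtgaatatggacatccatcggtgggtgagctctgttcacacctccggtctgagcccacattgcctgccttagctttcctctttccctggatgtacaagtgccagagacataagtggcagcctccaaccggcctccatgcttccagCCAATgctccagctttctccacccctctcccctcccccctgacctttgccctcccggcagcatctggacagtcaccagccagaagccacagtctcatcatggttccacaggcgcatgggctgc

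The motifs searched on both strands were TATAAA (a form of the TATA box), CCAAT (the CCAAT box), GTTAAT (part of a site of HNF1), CAAAGTCCA (HNF4), TGTTTAC (FOXA), TTGCNNAA (C/EBP), CTGGGAA (IL-6 response), TTCNNNGAA (STAT) and TGANTCA (AP-1). The STAT and AP-1 motifs read the same on both strands. Fga and Fgb each held GTTAAT on the other strand, ending 37 and 23 bases before the start, where 7.10% of all 32851 promoters in the table hold it. The RefSeq start of Fga lies 77 bases downstream of the GENCODE start used for the counts, so that this match in Fga falls after the GENCODE start. Both also held TTGCNNAA, found in 10.8% of promoters, and TTCNNNGAA, found in 8.30%. Fgb and Fgg held CTGGGAA, found in 11.1% of promoters, ending 84 bases before the start in Fgb and 6 bases before it in Fgg. Fgb further held TGANTCA, found in 7.81%. In the F7 window the 1 match was CCAAT, 68 bases before the start, a motif of 37.4% of promoters. None of the 8 windows held the TATAAA, HNF4 or FOXA letters, which 13.6%, 0.475% and 3.65% of promoters hold. Other forms of the TATA box were not searched. A match is a description of the letters, and not a site shown to be bound.

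Total counts in peaks were lower at each later time point, from 136949314 at 0 h to 15809769 at 96 h. Between 3224 and 4256 barcodes per library had at least 1000 counts and are called nuclei here, and library pairs shared between 27 and 60 barcodes. Peaks were called in each library on its own. They covered 153.6, 179.0, 141.2 and 60.9 Mb at 0, 48, 72 and 96 h, so that a gene's counts moved with the length called as well as with the density of cuts. The libraries had the markers of hepatocytes: 10 hepatocyte markers, among them Alb, Hnf4a and Apob, had a summed level of 3968 to 5088 in counts-per-million (CPM), and none was at 0. Summed over the libraries' peaks, 10 endothelial markers had 223 to 461 CPM, 8 markers of Kupffer and other myeloid cells 70.7 to 143 CPM, 8 stellate and mesenchymal markers 73.2 to 157 CPM, 5 biliary markers 46.6 to 69.4 CPM and 4 megakaryocyte and platelet markers 41.2 to 48.8 CPM. Markers at 0 numbered up to 1 endothelial, 2 to 5 myeloid, 1 to 4 stellate and mesenchymal, up to 2 biliary and up to 3 megakaryocyte markers per library.

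The level of a gene is the sum of counts in all peaks that touch the gene or the 2000 bp upstream of it, given in CPM of the library. Its exact 95% Poisson interval was taken on counts divided by 2, since both ends of a fragment are usually counted, and it covers counting error only. At 48 h the log2 ratios of the 10 genes against 0 h ran from -1.57 at F7 to 0.50 at the fibrinogen genes, with a median of -0.084 against -0.035 over all genes. At 72 h the median was -0.93 against -0.015 over all genes, and at 96 h it was -0.81 against 0.079. No gene of the 10 was at least 2-fold higher than at 0 h at 48, 72 or 96 h, where 5.72%, 10.6% and 5.6% of all genes were. The numbers at least 2-fold lower were 1 (F7) at 48 h, 4 (Fga, Fgb, Fgg and F7) at 72 h and 3 (Fga, F5 and F7) at 96 h, against a background of 1.9%, 6.05% and 9.05% of all genes. The 10 genes are not independent of each other, as Fga, Fgb and Fgg shared 1 peak at 0 h and F7 and F10 shared another. The lower values of Fga, Fgb and Fgg set that whole 0 h peak against its later pieces at each gene. Over the stretch of the 0 h peak in every library, the fibrinogen genes as 1 locus had log2 ratios of -0.40 at 72 h and 1.29 at 96 h, so that Fga turned from lower to higher at 96 h.

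**Figure D1:**
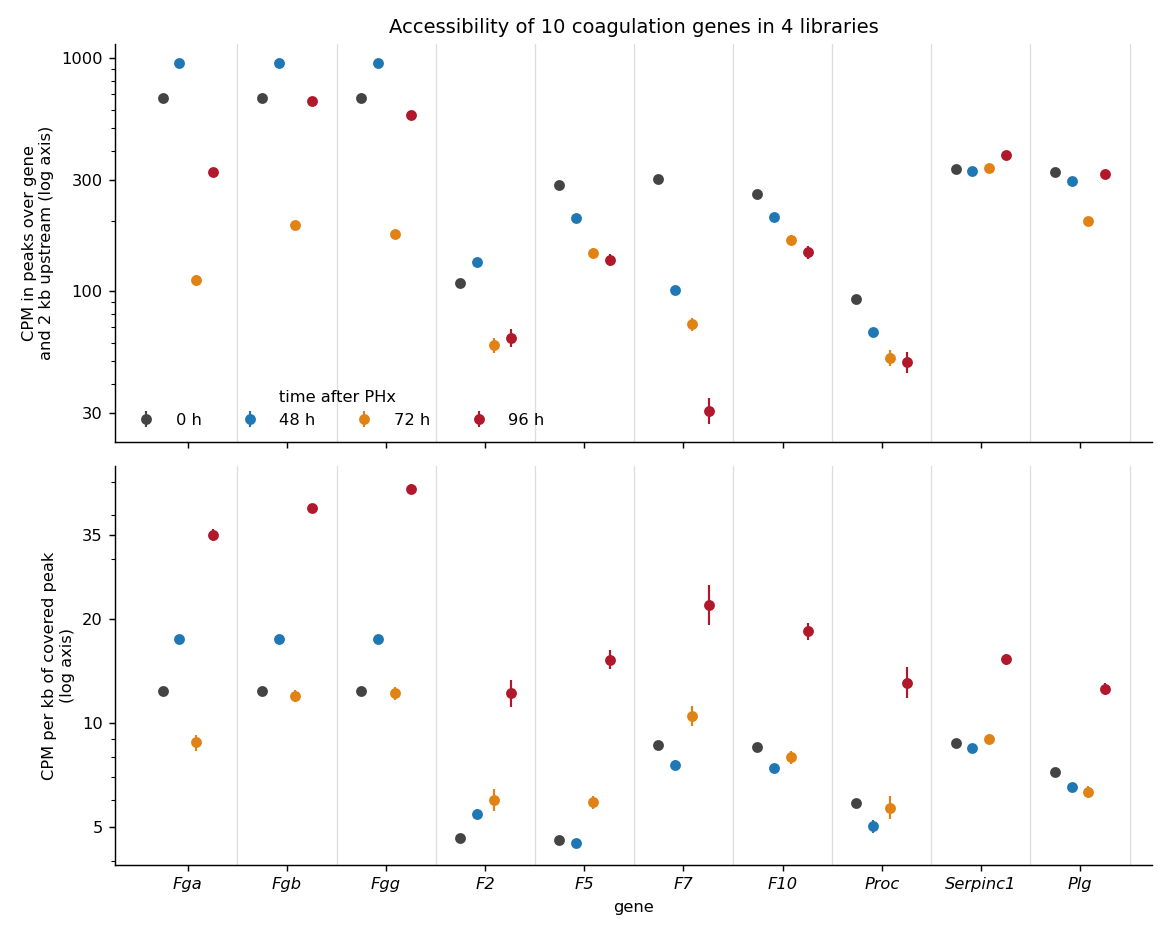
Levels of the 10 genes in the 4 libraries, as CPM in the peaks of each gene (upper panel) and as CPM per kb of covered peak (lower panel), both on a log axis, with 95% Poisson intervals of counting error. Serpinc1 sat between 326 and 384 CPM in all 4 libraries, while the fibrinogen genes were lowest at 72 h, F7 was lower at each later time point, and all 10 genes had their highest level per kb at 96 h. Of all genes with a peak in both libraries, 99.5% were higher per kb at 96 h than at 0 h.

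The fibrinogen genes had the highest levels of the 10 at 0 and 48 h. In both libraries 1 unbroken peak covered Fgg, Fga, Fgb and the start of the neighbouring gene Plrg1, which encodes a splicing factor. This peak was 54278 bp long at 0 h (chr3:83002010-83056287, build mm10) and 54263 bp at 48 h (chr3:83002019-83056281), ranking 34 of 119839 and 22 of 158652 peaks by length. It held 673 CPM (667 to 679) at 0 h and 952 CPM (941 to 963) at 48 h, so that the locus was 1.41-fold higher at 48 h, a log2 ratio of 0.50 (0.48 to 0.52), at nearly the same peak length. By counts it ranked 28 at 0 h and 8 at 48 h. In these 2 libraries the counts cannot be divided among the fibrinogen genes, since the deposited counts are per peak.

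At 72 h the same stretch was broken into 7 peaks and at 96 h into 9, covering 87.7% and 77.9% of it. Over the window of the 0 h peak the locus held 510 CPM (498 to 523) at 72 h and 1651 CPM (1622 to 1681) at 96 h. Against 0 h the log2 ratio was -0.40 (-0.44 to -0.36) at 72 h and 1.29 (1.27 to 1.32) at 96 h. The locus was thus highest at 96 h, the library with the smallest covered length, and lowest at 72 h. The 10 hepatocyte markers summed to 4197, 5016, 3968 and 5088 CPM at 0, 48, 72 and 96 h, the same order of libraries as the locus, and their part in its level was not tested. Per kb of covered peak it held 12.4, 17.5, 10.7 and 39.1 CPM at 0, 48, 72 and 96 h. The level per kb was higher at 96 h at most genes, with a median log2 ratio against 0 h of 1.26 over all of them. Fga, Fgb and Fgg lay at 1.5, 1.76 and 1.94 on that scale.

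**Figure D2:**
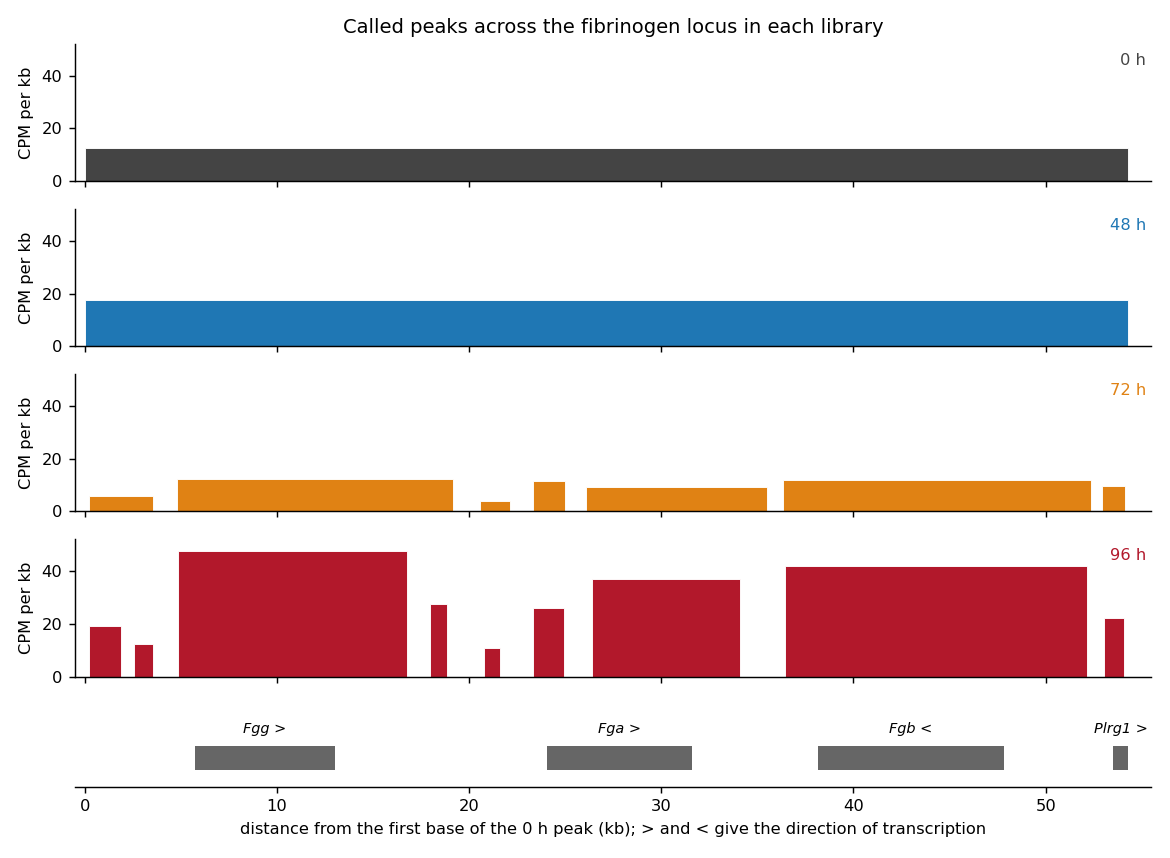
Called peaks over the fibrinogen locus, with distance in kb from the first base of the 0 h peak on the x axis and CPM per kb of peak as bar height on the same scale in all 4 panels, and gene bodies below. At 0 and 48 h 1 peak spans the locus, and at 96 h the peaks over Fgg, the body of Fga and Fgb stand at 47.7, 37.0 and 41.9 CPM per kb.

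With the locus divided, each fibrinogen gene could be read at 72 and 96 h. Fgb, which encodes the beta chain, lay under 1 peak of 15978 bp with 192 CPM (184 to 200) at 72 h (chr3:83038369-83054346) and of 15707 bp with 658 CPM (640 to 677) at 96 h (chr3:83038431-83054137). Fgg, the gene of the gamma chain, lay under a peak of 14406 bp with 176 CPM (169 to 183) at 72 h and of 11902 bp with 568 CPM (551 to 585) at 96 h. Each of these peaks began upstream of the gene start and ran past the end of the gene. At Fga, the gene of the alpha chain, a peak of 1644 bp over the start held 18.8 CPM (16.5 to 21.4) at 72 h and one of 1583 bp held 40.9 CPM (36.5 to 45.8) at 96 h. A second peak over the body of Fga held 86.1 CPM at 72 h and 284 CPM at 96 h. The 3 genes kept the same order of levels in both libraries: Fgb took 37.6% and 39.9% of the counts of the locus at 72 and 96 h, Fgg 34.5% and 34.4%, and the peak over the body of Fga 16.9% and 17.2%.

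Peaks over the starts of fibrinogen genes had nearly equal lengths, within a factor of 1.2, between 0 and 48 h and, for Fgb and Fga, between 72 and 96 h. These pairs of libraries were chosen after the values had been seen. Among 8956 genes with start peaks of nearly equal length at 0 and 48 h, the median log2 ratio was -0.23, with quartiles of -0.38 and -0.048, and 233 genes had a higher ratio than the 0.50 of the fibrinogen peak. From 72 to 96 h the peak over the start of Fgb was 3.43-fold higher, a log2 ratio of 1.78 (1.71 to 1.85), and that of Fga was 2.14-fold higher, a log2 ratio of 1.1 (0.87 to 1.37). Among 2688 genes whose start peaks had nearly equal lengths in both libraries, the median log2 ratio was 0.52, with quartiles of 0.40 and 0.63. Of them 0.521% were at least 2-fold higher, among which were both fibrinogen genes. No gene had a higher ratio than Fgb, and 4 had a higher ratio than Fga, namely Fgb, Cxcl1, Pck1 and Saraf. The peak over Fgg differed in length by slightly more than the limit and was not in this set.

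The locus was also read nucleus by nucleus. As a share of each nucleus's own counts, the locus held a median of 0.593 per 1000 counts at 0 h (quartiles 0.340 and 0.866), 0.809 at 48 h (0.386 and 1.32), 0.320 at 72 h (0 and 0.778) and 1.36 at 96 h (0.618 and 2.36). Nuclei without any count there made up 12.4%, 14.1%, 40.0% and 17.7%. The 96 h library thus had fewer such nuclei than the 72 h library although its nuclei were shallower, with a median of 3681.5 counts against 4841. The 10% of nuclei with the most counts at the locus held 34.2% to 40.7% of them in the 4 libraries, and the 10% deepest nuclei held 25.4% to 31.1% of all counts. When the nuclei of each library were divided into 4 equal classes by depth, the locus lay between 484 and 556 CPM in the classes of 72 h and between 1520 and 1748 CPM in those of 96 h. The corresponding ranges were 562 to 698 CPM at 0 h and 865 to 986 CPM at 48 h, so that the values of the 4 libraries did not overlap at any depth. The intervals of the shallowest class of 0 h (532 to 593) and of the second class of 72 h (524 to 589) did overlap.

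**Figure D3:**
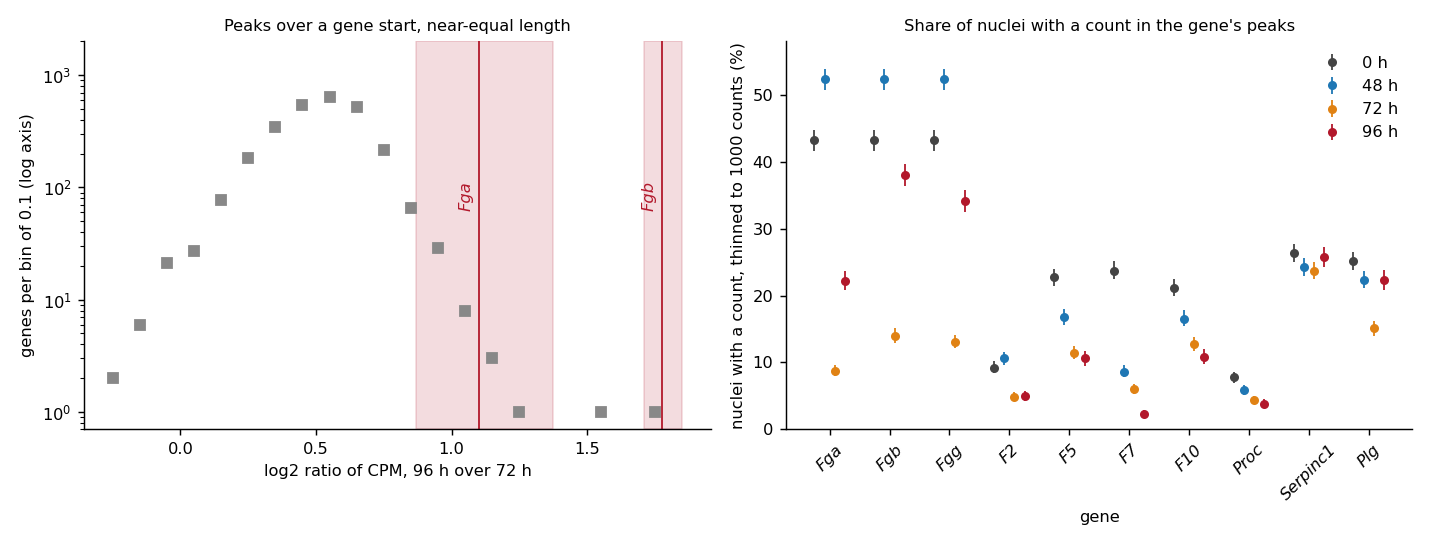
Left, number of genes per bin of 0.1 (log axis) by the log2 ratio of CPM at 96 h over 72 h, for 2688 start peaks of near-equal length, with lines and shaded 95% intervals for Fga and Fgb, which lie at 1.1 and 1.78 against a median of 0.52. Right, share of nuclei with at least 1 count in the peaks of a gene after thinning each nucleus to 1000 counts, with exact binomial intervals; Serpinc1 lies between 23.7% and 26.4%, and the fibrinogen genes have the shares of their common peak at 0 and 48 h (43.2% and 52.4%) and of their own, shorter peaks later, from 8.77% for Fga at 72 h to 38.0% for Fgb at 96 h.

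Among the procoagulant factors, F2 was higher at 48 h and lower later. F2 (chromosome 2), the gene of prothrombin, held 109 CPM (106 to 111), 134 CPM (130 to 138), 58.6 CPM (54.4 to 63.0) and 62.8 CPM (57.2 to 68.8) at 0, 48, 72 and 96 h. The intervals of the last 2 libraries overlapped, and those of the first 2 did not. The covered length was 23400, 24426, 9777 and 5138 bp in these libraries, and peaks counted for F2 ran on into the neighbouring gene Ckap5 at 0 and 48 h but not later. At 0 h the peak that touched Ckap5 was a separate one of 10226 bp with 31.8 of the 109 CPM. Log2 ratios against 0 h were 0.29 (0.24 to 0.35), -0.89 (-1.01 to -0.78) and -0.79 (-0.93 to -0.66), and per kb of peak they were 0.23, 0.37 and 1.39.

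F5, the gene of factor V, was lower at each later time point. It held 286 CPM (282 to 290), 207 CPM (201 to 212), 146 CPM (140 to 153) and 136 CPM (128 to 145) at 0, 48, 72 and 96 h. The gene lies at chr1:164151838-164220277, and it had 15, 24, 28 and 11 peaks in the 4 libraries, covering 83.5%, 63.6%, 34.3% and 12.0% of the gene and the 2000 bp upstream. The log2 ratios were -0.47, -0.96 and -1.06, and per kb of peak they were -0.033, 0.36 and 1.73. The peak over its start held 131, 53.5, 38.3 and 51.4 CPM and shortened from 16343 to 6118, 3543 and 2748 bp. At 0 and 48 h this peak also touched Selp, the neighbouring gene of P-selectin.

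F7 and F10, the genes of factors VII and X, lie head to tail on chromosome 8 and have to be read together. F7 held 302 CPM (298 to 306), 102 CPM (98.0 to 105), 71.9 CPM (67.3 to 76.8) and 30.6 CPM (26.8 to 34.8) at 0, 48, 72 and 96 h, the steepest series of the 10 genes, with a log2 ratio of -3.28 (-3.50 to -3.11) at 96 h. At 0 h, 262 of the 302 CPM came from a peak of 30739 bp (chr8:13033068-13063806) that touched the end of F7 and covered F10 and part of Proz, the gene of protein Z. At 48 and 72 h the peaks that F7 shared with F10 held 74.1 and 51.3 CPM, and at 96 h no shared peak touched F7. The peak over the start of F7, its own, held 37.8 CPM (36.4 to 39.3), 26.9 CPM (25.1 to 28.8), 20.6 CPM (18.2 to 23.3) and 30.6 CPM (26.8 to 34.8). The log2 ratios of this start peak were -0.49 (-0.61 to -0.38), -0.86 (-1.07 to -0.69) and -0.30 (-0.51 to -0.11), at lengths of 3317, 3022, 2088 and 1389 bp. The 2-fold calls of F7 at 48, 72 and 96 h thus rested on the 0 h peak that it shared with F10.

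F10 held 262 CPM (258 to 266), 208 CPM (203 to 214), 166 CPM (159 to 173) and 146 CPM (138 to 155). The log2 ratios were -0.33, -0.66 and -0.84. Over the window of the 0 h peak the level was 262, 208, 166 and 186 CPM, and at 48, 72 and 96 h the peaks covered 91.7%, 67.9% and 33.5% of it. In this fixed window the level at 96 h (176 to 196) was above that at 72 h (159 to 173), at the lowest coverage of the 4 libraries. The peak over the start of F10 shortened from 30739 to 10097, 4768 and 3455 bp, and its level per kb was 8.53, 7.34, 10.8 and 22.2 CPM.

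The 2 anticoagulant genes differed. Proc, the gene of protein C (chromosome 18), held 92.1 CPM (89.8 to 94.4), 66.7 CPM (63.8 to 69.6), 51.6 CPM (47.7 to 55.8) and 49.5 CPM (44.6 to 54.9) at 0, 48, 72 and 96 h, and only the last 2 intervals overlapped. Its log2 ratios were -0.46, -0.83 and -0.89. Most of its counts came from the peak over the start, with 60.0, 39.4, 33.3 and 39.8 CPM at lengths of 7379, 5024, 4486 and 2561 bp. A second group of peaks lay at the end of the gene, and between the 2 groups were peaks of at most 3.09 CPM.

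Serpinc1, the gene of antithrombin, varied least of the 10. It held 335 CPM (331 to 339), 326 CPM (320 to 333), 339 CPM (329 to 349) and 384 CPM (370 to 398). At 0, 48 and 72 h it lay under 1 peak of 38308, 38535 and 37541 bp, which reached into the neighbouring gene Zbtb37. The lengths were thus nearly equal, and the log2 ratios were -0.036 (-0.070 to -0.0026) at 48 h and 0.017 (-0.031 to 0.065) at 72 h. At 96 h the stretch was broken into 8 peaks with 25064 bp, and the level was slightly above that of 0 h, with a log2 ratio of 0.20 (0.14 to 0.25). The part at the far end, which touched Zbtb37, held 192 of the 384 CPM.

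Plg, the gene of plasminogen on chromosome 17, was lowest at 72 h and close to the 0 h level at 96 h. It held 325 CPM (321 to 330), 297 CPM (291 to 303), 201 CPM (193 to 209) and 317 CPM (304 to 330), and the intervals of 0 and 96 h overlapped. One peak of 44988 bp at 0 h and 45539 bp at 48 h covered the gene and touched Slc22a3, its neighbour. It was broken into 10 peaks with 31661 bp at 72 h and 8 peaks with 25253 bp at 96 h. Log2 ratios were -0.13 (-0.17 to -0.098), -0.70 (-0.76 to -0.64) and -0.037 (-0.099 to 0.024). Plg thus had, like the fibrinogen locus, its lowest level in the 72 h library, and unlike it no level above that of 0 h.

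**Figure D4:**
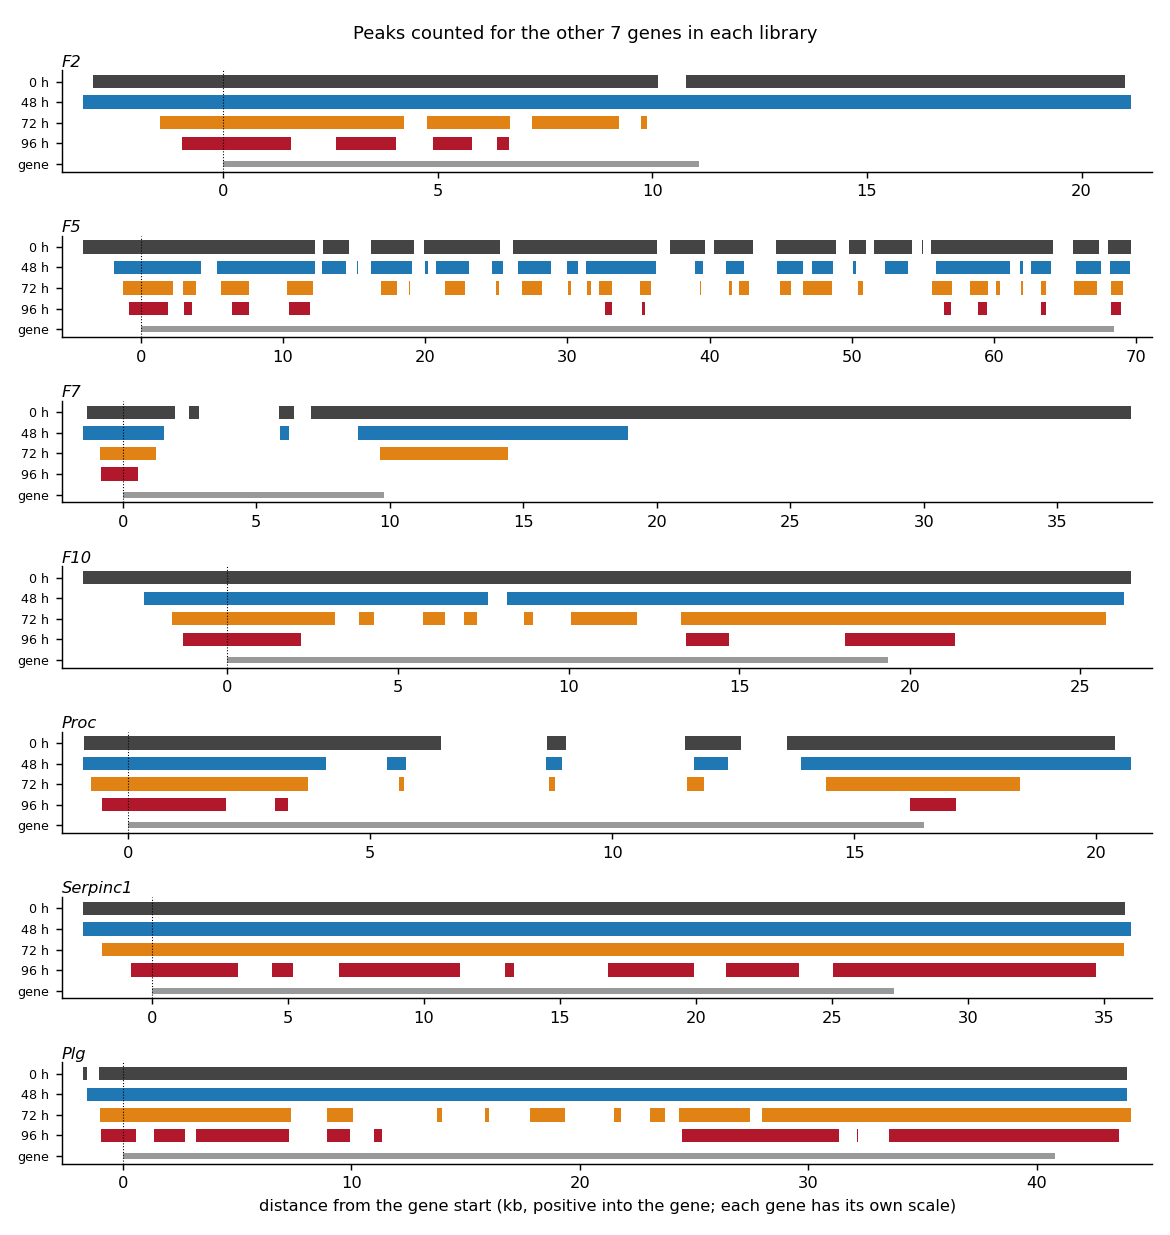
Peaks counted for the 7 genes outside the fibrinogen locus in each library, by distance from the gene start in kb (positive into the gene), with the gene body in grey. Serpinc1 and Plg lie under 1 long peak at 0 and 48 h, and in all 7 genes the peak over the start is shorter at 96 h than at 0 h.

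The covered length differed between libraries as well as the level. From 0 to 72 h the covered length had a median log2 ratio of -1.29 over the 10 genes, against -0.14 over all genes with a peak in both libraries, and from 0 to 96 h it was -2.12 against -1.09. Per kb of covered peak the medians of the 10 genes were -0.039, -0.031 and 1.37 at 48, 72 and 96 h, against -0.21, 0.17 and 1.26 over all genes. At 96 h, 8 of the 10 genes were at least 2-fold higher per kb, where 72.0% of all genes were, so that this count was near the background. The exceptions were Serpinc1 and Plg, with 0.81 and 0.80. When instead every peak in the merged regions that touch a gene was counted in each library, an alternative chosen after seeing the data, the medians were -0.084, -0.53 and -0.26. In that count 3 genes, those of fibrinogen, were at least 2-fold higher at 96 h, against a background of 5.66%, and 1, F5, was at least 2-fold lower, against 4.14%. The 3 fibrinogen genes had the same merged region and are 1 observation here. Their value of 1.29 lay above the upper quartile of 0.47 over all genes in that count, where the median was 0.11. Over the 1568 genes with regions of near-equal length at 0 and 96 h, 45.8% were at least 2-fold higher. The median log2 ratio of these genes was 0.94, with quartiles of 0.59 and 1.32. The fibrinogen locus was outside this set, since only 77.9% of its 0 h peak was still called at 96 h. The set is thus no background for its value.

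**Figure D5:**
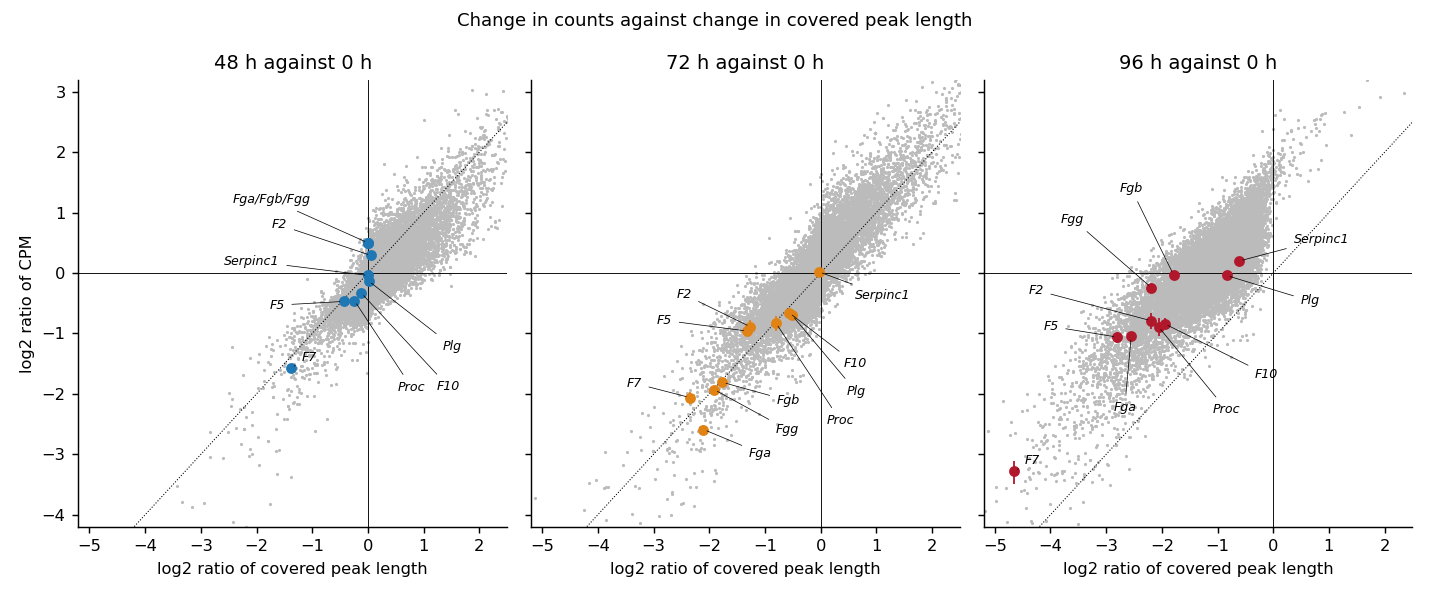
Log2 ratio of CPM against 0 h (y axis) by log2 ratio of covered peak length (x axis) at 48, 72 and 96 h, with all genes tested in grey (those beyond the axes are not drawn), the 10 genes in colour with 95% intervals of counting error, and a dotted line where both ratios are equal. At 72 h Fga lies below that line, at -2.59 by counts and -2.10 by length, and at 96 h all 10 genes lie above it. Of all genes with a peak in both libraries, 99.5% had a higher level per kb at 96 h than at 0 h.

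The promoter alone, the peaks within 1000 bp of the gene start, gave no independent view of the fibrinogen genes, Serpinc1 and Plg at 0 and 48 h, since the same long peaks lay there. The peaks over the starts of F5, F7, F10 and Proc were lower at 72 h than at 48 h and higher at 96 h than at 72 h. For F5 these were 53.5, 38.3 and 51.4 CPM at 48, 72 and 96 h, for F10 74.1, 51.3 and 76.5 CPM, and for F7 and Proc the values given above. From 48 to 72 h all 4 peaks also shortened, and their levels per kb were higher at 72 h for F5 (10.8 against 8.75 CPM), F7 (9.88 against 8.90 CPM) and F10 (10.8 against 7.34 CPM) and lower for Proc (7.43 against 7.85 CPM). Per kb, 89.5% of all start peaks were higher at 72 h than at 48 h, with a median log2 ratio of 0.37. Higher values per kb were thus common to most genes. From 48 to 72 h the log2 ratios of the levels were -0.48, -0.37, -0.53 and -0.24 for F5, F7, F10 and Proc, against a median of 0.10 over the start peaks of 12875 genes. From 72 to 96 h they were 0.42, 0.56, 0.57 and 0.25 against a median of 0.33 over 11745 genes, of which 78.6% were above 0, so that higher values at 96 h were common to most genes. The start peak of F2 held 42.7 and 41.6 CPM at 72 and 96 h. All 5 of these start peaks were shorter at 96 h than at 72 h, so that their levels per kb at 96 h, between 15.6 and 22.2 CPM, were all above those at 72 h, between 7.43 and 10.8 CPM. The same held for 99.6% of all start peaks.

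Of 31 other genes of the clotting and fibrinolytic pathways, 28 passed the filter, and F13a1, Procr and Plat did not. At least 2-fold lower than at 0 h were 2 of the 28 at 48 h, 9 at 72 h and 5 at 96 h, and 1 was at least 2-fold higher at each time point, against the same background as above. Medians were -0.11, -0.39 and -0.25. Of 7 genes listed for the contact and intrinsic pathways, by which clotting starts on negatively charged surfaces and activates factor X, 5 were among these 9, and F8 and F9, with log2 ratios of -0.41 and -0.36 at 72 h, were not. F11 and Klkb1 are neighbours and are not 2 independent observations, since 300 of their 361 and 340 CPM at 0 h came from 1 shared peak of 39713 bp, and at 96 h they shared none. F11 (factor XI) held 361, 110, 83.8 and 40.2 CPM at 0, 48, 72 and 96 h while its covered length went from 47553 to 4050 bp. Klkb1 (plasma prekallikrein) held 340, 139, 85.1 and 124 CPM, F12 (factor XII) 69.4, 53.2, 28.1 and 38.6 CPM, and the kininogen genes Kng1 and Kng2 209, 256, 87.2 and 214 CPM and 195, 157, 44.2 and 123 CPM. Kng1 thus had its lowest level at 72 h and was close to its 0 h level at 96 h, as Plg was.

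Among the inhibitors, Serpinf2 (alpha-2-antiplasmin) held 226, 130, 31.5 and 39.3 CPM, Serpind1 (heparin cofactor II) 78.0, 63.5, 25.2 and 15.8 CPM, and Hrg (histidine-rich glycoprotein) 98.2, 70.0, 26.3 and 50.8 CPM. Per kb of peak the log2 ratios of the 9 genes at 72 h were nearer 0. They were 0.18 for F12, 0.021 for Proz, -0.013 for Serpind1, -0.12 for Klkb1, -0.23 for F11, -0.39 for Kng2, -0.59 for Kng1 and -0.72 for both Serpinf2 and Hrg. Over all genes the median on that scale was 0.17, with quartiles of -0.041 and 0.38, and 0.324% were at least 2-fold lower. Klkb1, F11, Kng2, Kng1, Serpinf2 and Hrg thus lay below the lower quartile. Over whole merged regions F12, Proz and Serpind1 had -0.91, -0.60 and -0.96 at 72 h and did not reach 2-fold. At 48 h F11 (-0.9998) and Klkb1 (-0.976) did not reach it in that count. At 96 h F11 (-0.975), Proz (-0.43) and Serpinf2 (-0.73) did not, while Klkb1 (-1.05) and Serpind1 (-1.32) did. Proz held 348, 216, 165 and 112 CPM and shared with F10 the long peak of 0 h. The gene that was higher was Thbd, which encodes thrombomodulin, a thrombin receptor best known from endothelial cells. It held 5.56, 13.4, 22.2 and 18.4 CPM, with log2 ratios of 1.2 (1.07 to 1.48), 1.91 (1.77 to 2.23) and 1.64 (1.44 to 2.01). Its covered length went from 1218 to 3561, 3721 and 1632 bp, and per kb of peak its log2 ratios were -0.27, 0.39 and 1.31, so that it was lower than at 0 h at 48 h on that scale. The summed endothelial markers held 386, 414, 461 and 223 CPM at 0, 48, 72 and 96 h, above 0 h at 48 and 72 h like Thbd and below it at 96 h unlike Thbd. The summed myeloid markers held 70.7, 137, 143 and 101 CPM and the stellate markers 73.2, 116, 157 and 127 CPM, above 0 h throughout, and their part in the level of Thbd was not tested.

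Nuclei were divided by whether markers of endothelial, myeloid and stellate cells had more counts than the hepatocyte markers, which put 3.95%, 3.80%, 6.11% and 1.49% of nuclei in a marker-low class at 0, 48, 72 and 96 h. This class is a range of a score and not a cell type. The nuclei within 2 counts of its limit numbered 214, 196, 567 and 339, more than the 157, 148, 260 and 48 nuclei in it. Its nuclei were shallow, with median counts of 1462 to 3643 against 3742 to 27293. At 0 h the fibrinogen locus held 676 CPM (670 to 682) in the other nuclei and 121 CPM (89.8 to 160) in the marker-low nuclei, and all 10 genes were lower in the marker-low nuclei. The same held at 48 h, where the locus had 959 and 189 CPM. At 72 h 9 of the 10 genes were lower there, and F2, with 58.3 and 69.2 CPM, was not. At 96 h the marker-low class held 48 nuclei, and Fgb had 661 CPM in the other nuclei and 264 CPM (132 to 473) in it. Fga had 325 CPM in the other nuclei and 288 CPM (149 to 504) in the class, and Fgg 569 and 361 CPM (202 to 595). The intervals of Fga and Fgg in the class thus held their levels in the other nuclei. Thbd was higher in the marker-low nuclei at 0 h, with 71.4 against 5.16 CPM, and it also differed over time within the other nuclei, with 5.16, 12.8, 21.2 and 18.5 CPM. Leaving out the marker-low nuclei changed none of the 2-fold calls of the 10 genes.

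After each nucleus was thinned to 1000 counts, the share of nuclei with a count in the peaks of Fgb was 43.2%, 52.4%, 14.0% and 38.0% at 0, 48, 72 and 96 h. The exact 95% binomial intervals ran from 41.7% to 44.8% at 0 h and from 36.3% to 39.7% at 96 h. They cover the sampling of nuclei within a library and cannot tell time points apart. Unthinned, the shares for Fgb were 87.6%, 85.9%, 33.4% and 60.3%. The 0 and 48 h shares belong to the whole locus and the later ones to the peak over Fgb. Over the whole locus the order of 0 and 96 h was reversed, with medians of 0.593 and 1.36 per 1000 counts of a nucleus. For Serpinc1 the thinned shares were 26.4%, 24.3%, 23.7% and 25.8%, and for Plg 25.2%, 22.4%, 15.1% and 22.3%. In the marker-low nuclei, also thinned, the shares for Fgb were 11.1%, 10.7%, 3.96% and 11.7%, against 44.5%, 54.0%, 14.6% and 38.4% in the other nuclei. The lowest thinned share of the 10 genes was 2.32%, for F7 at 96 h.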

How the data were processed

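Per the labels and the file headers, the authors made the count matrices with Cell Ranger ATAC 1.1.0 on mm10: whole-number counts of transposase cut sites per peak and barcode, with peaks called in each library. The deposited peak lists and barcodes carry no values. Total counts were 136949314, 62553202, 25540258 and 15809769 at 0, 48, 72 and 96 h. Barcodes with at least 1000 counts were summed. No doublet caller was run, and an alternative dropped the deepest 5% of nuclei. Counts in peaks touching a protein-coding gene (GENCODE vM21) or the 2000 bp upstream were scaled to CPM. Log2 ratios used a pseudocount of 0.5 CPM, over genes with a mean of at least 5 CPM. With 1 library per time point no test was run: a gene was called past 2-fold, and intervals are exact, at 95%, on counts divided by 2. The ratio code was tested on simulated data. The text names all 10 genes, pathway genes past 2-fold and genes sharing a peak with them. The genes and lists were chosen with earlier results of these data known. Promoters came from RefSeq (GRCm38.p6). Python 3.11.15, numpy 2.4.6, scipy 1.17.1 and pandas 2.3.3 were used.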

Additional observations from a re-analysis of the deposited data

How the results depend on the processing

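There were no replicates, so nothing here could be set against replicate spread, and every value carries counting error only. A minimum of 3000 counts per nucleus, leaving out the deepest 5% of nuclei or the marker-low nuclei, and no filter on low values kept the counts of genes past 2-fold, with medians of -0.091 to -0.079, -0.93 to -0.91 and -0.84 to -0.80 at 48, 72 and 96 h. Regions with a peak in all 4 libraries left 2 genes lower at 96 h, against 7.17% of all genes. Scaling to counts in peaks at annotated starts gave medians of 0.035 and -0.73 at 48 and 72 h and 1 gene lower at 96 h, where 9.22% of all genes were, and moved the medians of all genes to 0.097, 0.21 and 0.15. Centring on all genes gave a median of -0.049 at 48 h. Promoter peaks alone gave 2, 6 and 5 genes lower at 48, 72 and 96 h, with medians of -1.79 and -1.11 at 72 and 96 h. Over all genes 2.59%, 8.24% and 10.2% were lower in that count, with medians of -0.12 and 0.19 at 72 and 96 h. Regions of near-equal length left 7 and 2 genes at 48 and 72 h, with medians of -0.036 and -0.11 and 0 genes lower, and none of the 10 genes at 96 h, so 0 lower and no median there. A fold of 1.5 called 9 and 6 genes lower at 72 and 96 h, where 16.1% and 17.6% of all genes were. Per kb of peak, 0 genes were lower at 48, 72 and 96 h, 8 were higher at 96 h, and medians were -0.039, -0.031 and 1.37. F7 turned to 0.28 at 72 h, and Fga, F5 and F7 to 1.5, 1.73 and 1.35 at 96 h. Counting each nucleus once per peak gave medians of 0.54, 0.42 and 1.2, with 0, 0 and 1 genes lower and 3 and 5 higher at 72 and 96 h, where 7.06% and 4.13% of all genes were higher. Fga, Fgb and Fgg turned to 0.25, 0.63 and 0.59 at 72 h and Fga to 1.45 at 96 h. By construction, that setting counts a nucleus once in the unbroken 0 h peak and up to once in each of its later pieces. Whole merged regions, chosen after seeing the data, gave 0 genes lower at 48 and 72 h, 1 lower and 3 higher at 96 h, medians of -0.53 and -0.26 at 72 and 96 h, and Fga at 1.29 at 96 h. For the other settings the cause was not tested. No paired analysis was possible because each time point has 1 library.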
